A study of Mus musculus with 6 samples.

Results

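Collagen hydroxylases and chaperones are the enzymes and binding proteins of the endoplasmic reticulum that modify and fold procollagen before it is secreted. The group was taken by gene symbol as P4ha1, P4ha2, P4hb, Plod1, Plod2, Plod3, P3h1, P3h3, Crtap and Serpinh1, and all 10 were found among the 25491 genes of the count table and among the 14465 with enough counts to be tested. RNA was measured in mesenchymal progenitor cells, stromal cells of the bone marrow from which bone-forming and fat cells develop. There were 3 libraries of Lama4-/- cells, from animals without Lama4, a laminin subunit gene, and 3 libraries of wild type cells from animals of matched age. All mice were C57BL/6J, aged 14 weeks, and had received a sublethal dose of 7 Gy of radiation 6 weeks before the cells were sorted as CD45-, TER119-, CD31-, CD44-, SCA1- and CD51+. How the Lama4 allele was made is not given in the sources used here, and since every mouse was irradiated the comparison is between genotypes after irradiation. The design text counts 3 mice of each genotype but does not tie a library to a mouse, so the p-values rest on the variation among libraries, whatever its source.

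Procollagen chains are hydroxylated on proline and lysine while they enter the endoplasmic reticulum, by enzymes that need iron, oxygen, 2-oxoglutarate and ascorbate. Prolyl 4-hydroxylase makes the 4-hydroxyproline that holds the triple helix together at body temperature, lysyl hydroxylases prepare the sites for glycosylation and for the cross-links of the finished fibre, and prolyl 3-hydroxylases act with cyclophilin B at few sites of the helix. HSP47, the product of Serpinh1, binds the folded helix and accompanies it towards the Golgi. In humans, loss of P3H1, CRTAP or SERPINH1 causes recessive forms of brittle bone disease, and loss of PLOD2 causes Bruck syndrome, in which bone collagen lacks its usual cross-links.

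The RefSeq promoter table of build GRCm38.p6 held 9 of the 10 genes. The 250 bases upstream of the RefSeq start are shown, on the gene's own strand, for Serpinh1 and for the 3 genes whose levels followed it most closely across the libraries. They are Serpinh1 at chr7:99353240-99353489, P4hb at chr11:120573254-120573503, Crtap at chr9:114390713-114390962 and P3h3 at chr6:124857718-124857967, all on the minus strand. The P3h3 window overlaps the gene position given further on (chr6:124841089-124857752), which comes from GENCODE and has another start. Capitals mark the GC box GGGCGG, the CCAAT box CCAAT, and ACGTG or GCGTG, the core letters of the hypoxia response element, each on either strand. No 2 marked matches shared a base.
Serpinh1: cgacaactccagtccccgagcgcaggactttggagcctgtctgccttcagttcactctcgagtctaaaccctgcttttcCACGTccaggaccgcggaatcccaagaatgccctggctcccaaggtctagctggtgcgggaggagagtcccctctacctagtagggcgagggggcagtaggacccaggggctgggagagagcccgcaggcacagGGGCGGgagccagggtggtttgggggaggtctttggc
P4hb: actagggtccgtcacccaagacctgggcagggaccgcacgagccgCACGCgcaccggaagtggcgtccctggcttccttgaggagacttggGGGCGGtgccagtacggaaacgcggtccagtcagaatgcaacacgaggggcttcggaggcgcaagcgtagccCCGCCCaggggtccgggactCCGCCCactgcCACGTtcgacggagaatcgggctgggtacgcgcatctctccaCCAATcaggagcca
Crtap: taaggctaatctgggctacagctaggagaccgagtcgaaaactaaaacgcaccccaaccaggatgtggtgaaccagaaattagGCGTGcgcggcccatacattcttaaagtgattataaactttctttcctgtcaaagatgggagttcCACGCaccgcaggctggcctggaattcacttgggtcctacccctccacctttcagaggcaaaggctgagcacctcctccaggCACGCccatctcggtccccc
P3h3: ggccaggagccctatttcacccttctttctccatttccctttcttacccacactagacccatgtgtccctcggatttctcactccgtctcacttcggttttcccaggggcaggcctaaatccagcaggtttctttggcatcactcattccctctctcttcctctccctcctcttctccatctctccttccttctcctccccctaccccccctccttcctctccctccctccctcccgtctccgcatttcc
The 4 windows do not carry a common arrangement of these letters: P4hb had 3 GC boxes, a CCAAT box and 2 hypoxia cores, Serpinh1 1 GC box and 1 hypoxia core, Crtap 3 hypoxia cores and neither of the other motifs, and P3h3 none of the 3 motifs. Across the 9 genes, the GC box was found in 6, the CCAAT box in 3 the hypoxia core in 8, and the heat shock element pair (GAANNTTC or TTCNNGAA, not capitalised) in 1. Of all 32851 promoter windows of the same length, 32.7% held the GC box, 33.8% the CCAAT box, 38.6% the hypoxia core and 12.8% the heat shock pair. These shares are of windows, while P3h1, with 2 windows, was counted as 1 gene if either held the motif. The windows of the 9 genes were 53.6% to 70.0% G and C, and the shares over all windows are not matched to that. The matches are descriptions of letters, not of binding.

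Lama4 itself was at 0 counts in each Lama4-/- library and at 33.8 to 45.4 CPM (counts relative to the TMM-scaled library total) in wild type. Library totals were 12979711 to 15663957 counts for Lama4-/- and 6263830 to 13409177 for wild type, the lowest being wild type replicate 2. All 8 stromal markers listed for the cell type, among them Cxcl12, Lepr and Col1a1, were counted in every library. Only Col1a1 of the 8 had a higher mean in Lama4-/-. Lepr, Pdgfra, Pdgfrb, Kitl and Runx2 were lower in every Lama4-/- library than in any wild type library. Of all tested genes, 12% were lower in this way. Lepr was at 68.8 to 167 CPM in Lama4-/- against 203 to 443 CPM in wild type. Itgav (CD51), the gate's positive marker, was at 44.5 to 73.0 CPM in Lama4-/- and 95.9 to 139 CPM in wild type. Of the gate's negative markers, Ptprc (CD45) was at 0 in 3 libraries and Pecam1 (CD31) at 2.05 CPM or less. Cd44 RNA was at 53.2 to 82.0 CPM in Lama4-/- and 70.6 to 152 CPM in wild type. Ly6a (SCA1) RNA was at 8.64 to 11.8 and 8.90 to 16.3 CPM. All 8 red cell markers had a higher mean in Lama4-/-, with a summed level of 1428 to 3956 CPM against 284 to 1770 CPM in wild type. All 9 neutrophil and monocyte markers also had a higher mean in Lama4-/-. They summed to 772, 703 and 115 CPM in Lama4-/- replicates 1 to 3, against 36.0 to 116 CPM in wild type. Lama4-/- replicate 3 thus lay inside the wild type range. Of the 5 endothelial markers in the table, Cdh5 and Tek were at 0 in every Lama4-/- library (Tek also in wild type replicates 2 and 3), and the summed level was 0.120 to 1.58 CPM there against 5.82 to 7.95 CPM in wild type. Of the 5 B and plasma cell markers in the table, Ebf1 alone was at 42.8 to 46.9 CPM in Lama4-/- and 55.3 to 87.1 CPM in wild type, while Cd79a, Jchain, Igkc and Mzb1 were at 0 to 1.94 CPM, and their sum of 43.6 to 46.9 and 57.2 to 90.6 CPM is therefore that of Ebf1. The 4 megakaryocyte markers summed to 4.74 to 16.1 and 9.42 to 21.2 CPM. The part of these lists in the results was not tested. In sorted bulk RNA, fewer cells of a kind and less RNA per cell cannot be told apart. The marker levels are with TMM scaling, and the trend of fold change on transcript length given below was not removed from them.

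The 10 genes were among the more abundant transcripts of these cells. Expressed per kilobase of annotated exon, their mean levels lay between percentile 91.2 and percentile 99.9 of the tested genes. Serpinh1 was the highest, at 3004 ± 709 CPM per kb in Lama4-/- and 1894 ± 681 CPM per kb in wild type (SD, n = 3 each, as throughout). P4hb, which encodes protein disulfide isomerase, followed at 812 ± 126 and 596 ± 134 CPM per kb, and Crtap at 285 ± 30.04 and 207 ± 19.7 CPM per kb. For each of these 3 genes, every library was above every library of the next gene in the order. Plod2, P4ha1 and P3h1 came next, with means over all 6 libraries of 108, 101 and 98.8 CPM per kb, and neighbours in this order did not differ beyond their spread. P4ha2, P3h3, Plod3 and Plod1 were lower, at 53.2, 42.1, 34.7 and 33.4 CPM per kb, each overlapping the next. The place of P4ha2 depends on the length used: per kilobase of its longest transcript it was at 108 CPM per kb, beside 103 for P4ha1.

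**Figure D1:**
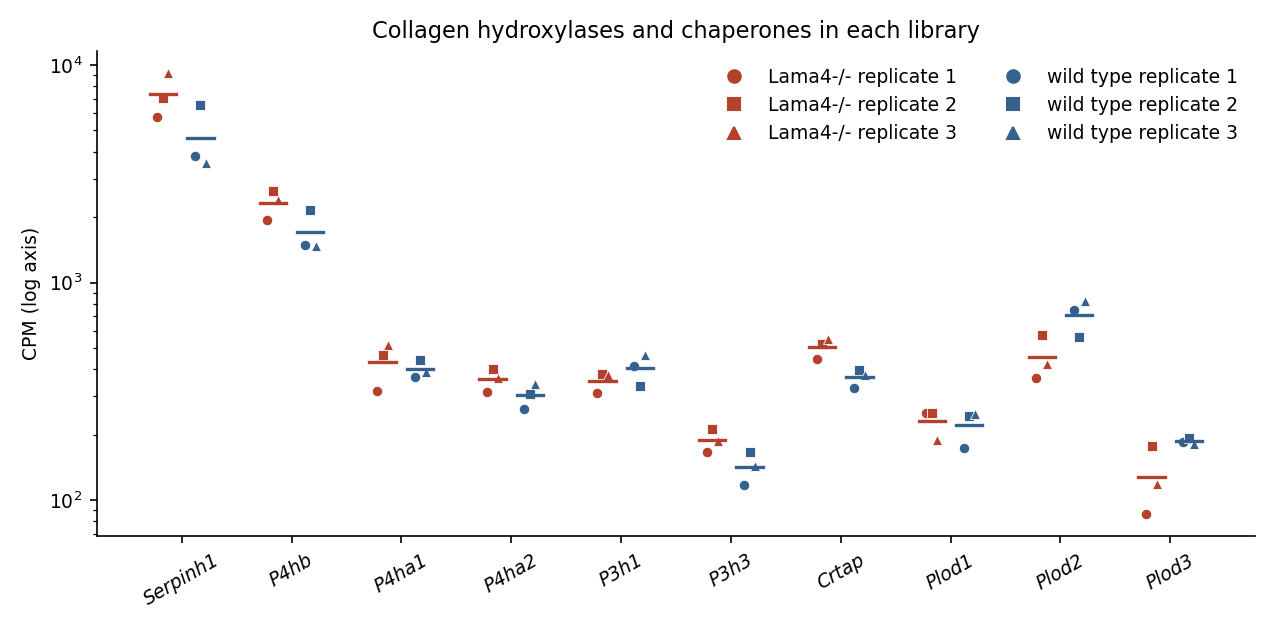
CPM of each gene on a log axis, with Lama4-/- libraries (red) left of wild type libraries (blue), marker shapes for the replicates and bars for the means. Serpinh1 and P4hb stand above the other 8 genes, and wild type replicate 2 (blue square) lies with the Lama4-/- libraries for Serpinh1, P4hb and Plod2.

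No gene of the group passed the comparison of Lama4-/- with wild type. In edgeR's quasi-likelihood test with Benjamini-Hochberg adjustment over all 14465 genes, 0 of 10 had an adjusted p under 0.05 (range 0.331 to 0.946), where 0.00691% of all tested genes did, which is 1 gene, Lama4. DESeq2 and limma voom called 0 of 10 as well, where DESeq2 called 4.39% of the 16462 genes to which it gave an adjusted p and limma voom 0% of 14465. In the authors' deposited table the adjusted p of these genes runs from 0.113 to 0.923. At an unadjusted p under 0.05 there were 2 of 10, Plod2 on the lower side and Crtap on the higher. Over all tested genes the share was 12.8%, 4.45% higher and 8.34% lower in Lama4-/-, so a pair out of 10 is not far from the background. At that unadjusted threshold DESeq2 had 3 of 10, beside 11.1% of its 25358 genes, and limma voom 2 of 10, beside 15.2%. The groups did not overlap for 3 genes, Crtap and P3h3 with every Lama4-/- library above every wild type library and Plod3 with every one below, where 22.3% of all tested genes did not overlap, 10.3% on the higher and 12% on the lower side. The log2 fold change was positive for 7 and negative for 3, where 48.0% of all tested genes were positive, and its median was 0.18, beside -0.040 over all tested genes. That median was 0.32 without Lama4-/- replicate 1, 0.10 without Lama4-/- replicate 2 and 0.12 without wild type replicate 1.

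Wild type replicate 2 bears on most of these comparisons. It lay inside the range of the Lama4-/- libraries for 6 of the 10 genes, while wild type replicates 1 and 3 did so for 1 and 3 genes. Without it, 5 genes had an unadjusted p under 0.05 in the edgeR test, namely P4hb, Plod2, P3h3, Crtap and Serpinh1, where 12.7% of all tested genes did, and no adjusted p was below 0.256. The groups then did not overlap for 7 genes, where 34.6% of all tested genes did not. Without wild type replicate 1, wild type replicate 3 or Lama4-/- replicate 3 the count at that unadjusted threshold was 0, beside 9.65%, 7.75% and 11.2% of all tested genes in those fits. Without Lama4-/- replicate 1 the groups did not overlap for 7 genes, beside 31.3% of all tested genes.

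**Figure D2:**
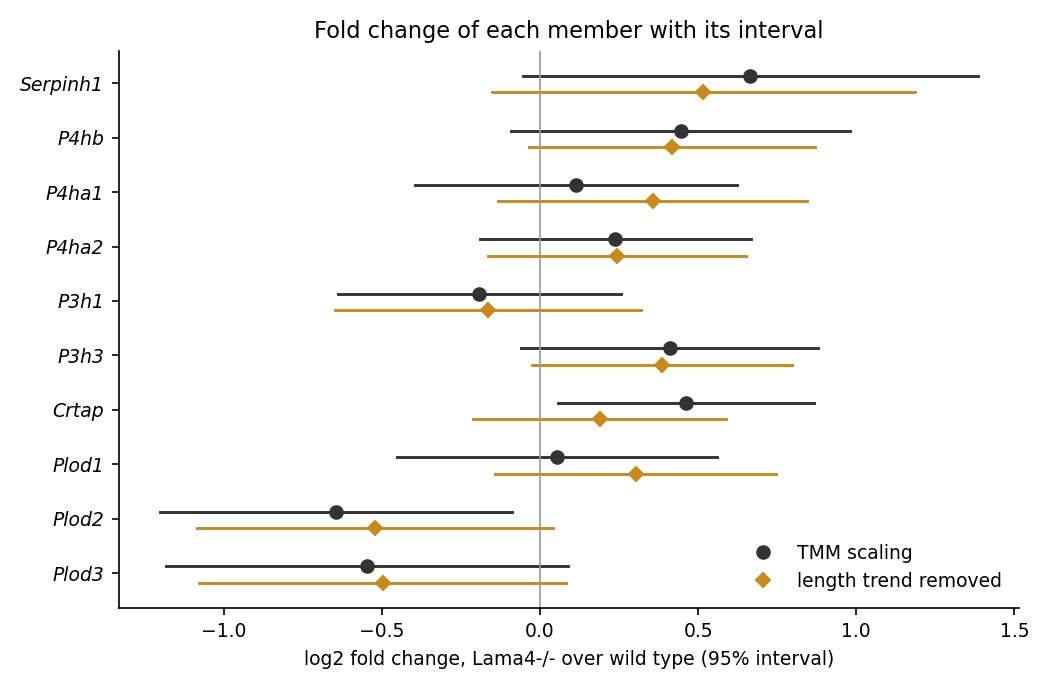
Log2 fold change of each gene, Lama4-/- over wild type, with its 95% interval, as fitted with TMM scaling (black) and with the trend of fold change on transcript length removed (orange). With TMM scaling the intervals of Crtap and Plod2 leave out 0, and with the trend removed every interval includes it.

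Among the chaperones, Serpinh1 had 5775, 7037 and 9201 CPM in Lama4-/- replicates 1 to 3, against 3799, 6542 and 3541 CPM in wild type replicates 1 to 3. The groups overlapped through wild type replicate 2 alone, which was above Lama4-/- replicate 1. The fitted fold was 1.59 with a 95% interval of 0.963 to 2.61 (log2 fold change 0.67, SE 0.31, edgeR adjusted p = 0.420). Without wild type replicate 2 the log2 fold change was 0.9996 (edgeR adjusted p = 0.256). P4hb, the shared beta subunit of prolyl 4-hydroxylase and an abundant foldase in its own right, had 1930, 2641 and 2396 CPM in Lama4-/- and 1491, 2150 and 1478 CPM in wild type. Here too the wild type library inside the Lama4-/- range was replicate 2. Its fold was 1.36 with an interval of 0.938 to 1.97 (edgeR adjusted p = 0.477), and its log2 fold change was 0.65 without wild type replicate 2. Serpinh1 lies at chr7:99345376-99353239 and P4hb at chr11:120560298-120573253 (GRCm38, as for all positions of genes here).

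The catalytic alpha subunits of prolyl 4-hydroxylase, the products of P4ha1 (chr10:59323296-59373304) and P4ha2 (chr11:54100095-54131665) overlapped between the genotypes. P4ha1 had 319, 462 and 514 CPM in Lama4-/-, against 369, 439 and 389 CPM in wild type. Its lowest and highest libraries were both Lama4-/-, and the log2 fold change was 0.11 with an interval of -0.40 to 0.62, and -0.031 without Lama4-/- replicate 3. P4ha2 had 315, 399 and 363 CPM in Lama4-/- and 263, 308 and 342 CPM in wild type, with a log2 fold change of 0.24 and an interval of -0.19 to 0.67. The intervals reach above 0.6 on the log2 scale, so equal levels of these subunits are not shown. P4ha3, the third alpha subunit and outside the group, was at 14.99 ± 6.19 CPM in Lama4-/- and 25.4 ± 6.63 CPM in wild type, and supplied 3.06% ± 1.85 and 5.32% ± 1.54 of the alpha subunit CPM per kb.

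Of the prolyl 3-hydroxylation genes, Crtap, a non-enzymatic partner that P3h1 needs for its stability, had 445, 522 and 548 CPM in Lama4-/- against 328, 395 and 377 CPM in wild type. All Lama4-/- libraries were above all wild type libraries, with a fold of 1.38 and an interval of 1.04 to 1.82 (edgeR unadjusted p = 0.0306, adjusted p = 0.334). Crtap also had the smallest spread of the group: its within-genotype SD of log2 CPM was 0.15, at percentile 10.98 of the 1312 genes with at least 100 CPM. P3h1, the prolyl 3-hydroxylase of fibrillar collagens, had 311, 379 and 374 CPM in Lama4-/- and 414, 335 and 466 CPM in wild type, a log2 fold change of -0.19 with an interval of -0.64 to 0.26. The P3h1 value was -0.31 without wild type replicate 2, -0.074 without wild type replicate 3 and -0.095 without Lama4-/- replicate 1. P3h3, known in mouse skin from a complex with P3h4 and the Plod1 product, had 166.0, 213 and 188 CPM in Lama4-/- and 118, 165.8 and 143 CPM in wild type. Its groups were apart by less than 1 CPM between Lama4-/- replicate 1 and wild type replicate 2, and its fold was 1.33 with an interval of 0.960 to 1.84 (edgeR adjusted p = 0.449). Crtap lies at chr9:114375134-114390675, P3h1 at chr4:119232915-119248975 and P3h3 at chr6:124841089-124857752.

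Plod2, the lysyl hydroxylase of the collagen telopeptides, had 366.0, 572 and 422 CPM in Lama4-/- and 747, 562 and 820.2 CPM in wild type. Lama4-/- replicate 2 and wild type replicate 2 were nearly level, while the other 2 libraries of each genotype were far apart. The fold was 0.639 with an interval of 0.434 to 0.940 (edgeR unadjusted p = 0.0285, adjusted p = 0.331). Plod3, which also carries the glycosyltransferase activity that adds sugars to hydroxylysine, had 86.1, 178 and 118 CPM in Lama4-/- and 185, 193 and 181 CPM in wild type. The wild type libraries were close together, the Lama4-/- libraries spread over a wide range below them, and the log2 fold change was -0.55 with an interval of -1.18 to 0.088 (edgeR adjusted p = 0.456). Without Lama4-/- replicate 2 the Plod3 value was -0.87, and without Lama4-/- replicate 1 it was -0.32. Plod1 lies at chr4:147909753-147936767, Plod2 at chr9:92542223-92608428 and Plod3 at chr5:136987019-136996648. Exons of Plod3 share 529 bases with Znhit1, and those of Plod2 share 346 bases with Gm38391, both on the opposite strand. The library kit does not mark strand, so reads in these stretches cannot be told apart. Plod1, the lysyl hydroxylase of the helix, had 252, 251 and 188 CPM in Lama4-/- and 174, 244 and 248 CPM in wild type, with a log2 fold change of 0.054 and an interval of -0.45 to 0.56. The Plod1 value was below 0 without Lama4-/- replicate 1 (-0.0026), Lama4-/- replicate 2 (-0.017) or wild type replicate 1 (-0.081). Per kilobase of exon, Plod2 made up 57.3% ± 2.37 of the lysyl hydroxylase signal in Lama4-/- and 63.7% ± 5.84 in wild type, and Plod1 made up 23.8% ± 5.38 and 16.1% ± 3.61.

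**Figure D3:**
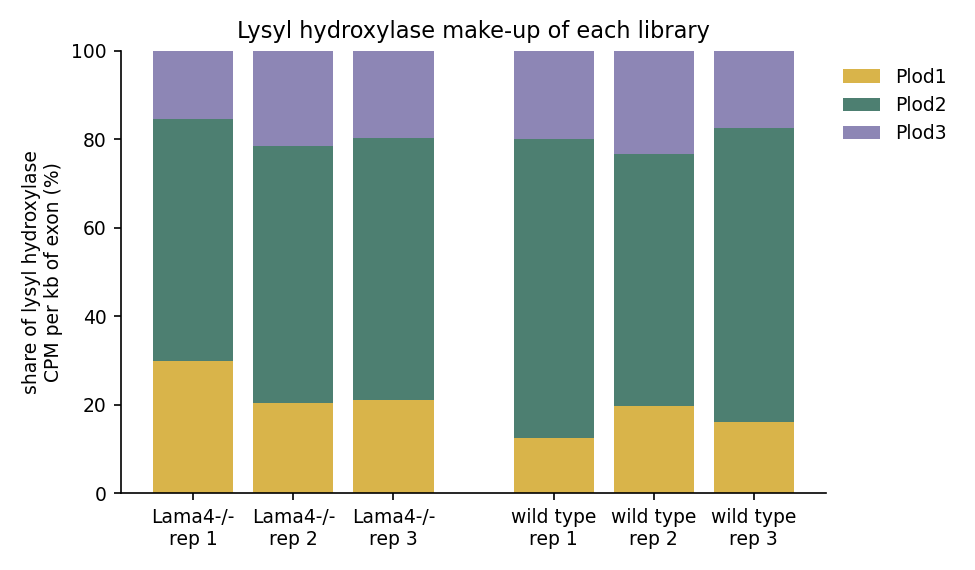
Share of each lysyl hydroxylase gene in the summed CPM per kb of Plod1, Plod2 and Plod3, 1 bar a library with Lama4-/- on the left. Plod2 is the largest part of every bar, and wild type replicate 2 resembles Lama4-/- replicate 2.

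Ratios between members of 1 library do not depend on how libraries are scaled to each other, and 5 were compared by an exact two-sided permutation test, where 3 libraries against 3 cannot go below p = 0.1. The ratio of Plod2 to Plod1, telopeptide to helix enzyme, was 1.82, 2.86 and 2.81 in Lama4-/- and 5.40, 2.89 and 4.15 in wild type. Every Lama4-/- library was below every wild type library, with a difference of -0.71 on the log2 scale (exact permutation p = 0.1, 0.25 adjusted over the 5 ratios). P3h1 to Crtap, the partners of 1 complex, was 0.322, 0.335 and 0.315 in Lama4-/- and 0.583, 0.391 and 0.570 in wild type. This ratio was also lower in each Lama4-/- library, by 0.65 on the log2 scale on average (exact permutation p = 0.1, 0.25 adjusted over the 5 ratios), and it varied least in Lama4-/-, with an SD of 0.045 there and 0.32 in wild type. The alpha to beta subunit ratio, P4ha1 and P4ha2 over P4hb, was 0.190, 0.191 and 0.219 in Lama4-/- and 0.253, 0.208 and 0.289 in wild type, overlapping through wild type replicate 2 (exact permutation p = 0.2). P4ha1 to P4ha2 differed by -0.15 on the log2 scale (exact permutation p = 0.6). Serpinh1 relative to Col1a1 and Col1a2, its main clients in bone, was 0.208, 0.514 and 0.227 in Lama4-/- and 0.165, 0.260 and 0.119 in wild type (exact permutation p = 0.3).

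**Figure D4:**
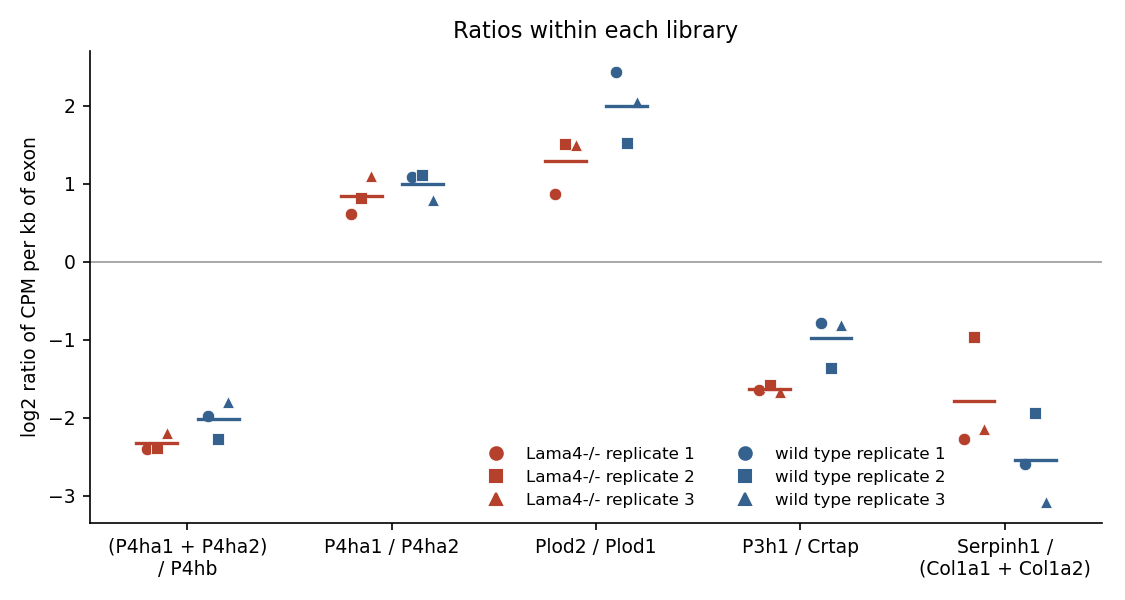
The 5 ratios of CPM per kb of exon in each library, on a log2 axis, Lama4-/- (red) left of wild type (blue), with bars for the means. Plod2 to Plod1 and P3h1 to Crtap are lower in each of the 3 Lama4-/- libraries than in any wild type library. The margin to wild type replicate 2 is narrow for Plod2 to Plod1 and wider for P3h1 to Crtap.

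Fold changes in this series followed transcript length: across 14463 genes Spearman's rho between transcript length (the longest annotated) and log2 fold change was -0.46, a correlation over genes, which are not independent. The 10 genes are of middling length, 1674 to 4097 bases with a median of 3124, the same as the median of all tested genes. With the trend removed from every library, the direction of all 10 was kept, 0 had an unadjusted p under 0.05, and the median log2 fold change was 0.27 beside 0.020 over all genes. Crtap, the shortest, differed most from its value with the trend, at 0.19 (unadjusted p = 0.307 in edgeR). Plod2 was at -0.52, Plod3 at -0.50, Serpinh1 at 0.52, P4hb at 0.42 and P3h3 at 0.39. P4ha1 and Plod1, the longest, were at 0.36 and 0.30. The Plod2 to Plod1 difference was -0.81 on the log2 scale without the trend (exact permutation p = 0.1), P3h1 to Crtap was -0.33 (exact permutation p = 0.4), and Serpinh1 to its clients was at -0.0075 (exact permutation p = 1).

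**Figure D5:**
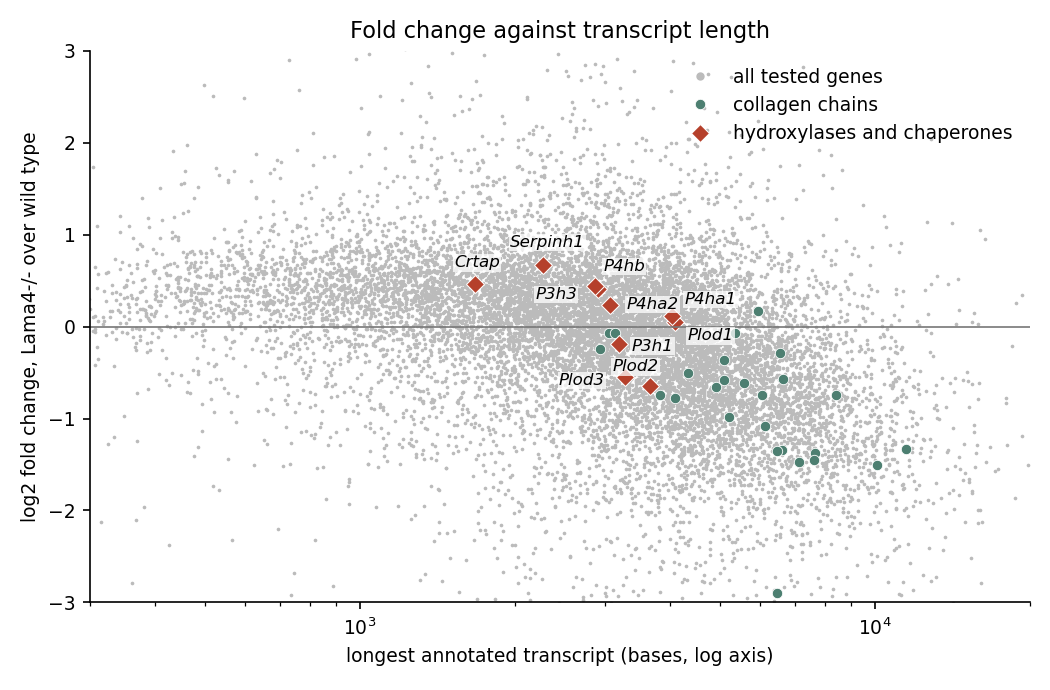
Log2 fold change, Lama4-/- over wild type, against the longest annotated transcript on a log axis, for all tested genes (grey), collagen chains (green) and the hydroxylases and chaperones (red). The 10 genes sit in the middle of the length range and the collagen chains further right and lower; 348 genes lie outside the plotted range.

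Further genes of collagen modification and folding were mixed. Of 15 tested, 11 were above and 4 below 0 in log2 fold change (median 0.14), where 48.0% of all tested genes were positive. At an unadjusted p under 0.05 in edgeR there were 3 higher and 1 lower, beside 4.45% and 8.34% of all tested genes. After adjustment there were 0 in edgeR, beside 0.00691%, and 2 in DESeq2, beside 4.39% of the genes it adjusted. The 3 higher genes were P3h4, Ppib and Fkbp7. P3h4, the partner of P3h3, had 462, 578 and 541 CPM in Lama4-/- and 329, 332 and 356 CPM in wild type, a log2 fold change of 0.63 (edgeR adjusted p = 0.238, DESeq2 adjusted p = 0.0156). Ppib, which encodes cyclophilin B, the isomerase bound to P3h1 and Crtap, had 237, 230.1 and 227 CPM in Lama4-/- and 143, 129 and 169 CPM in wild type, a log2 fold change of 0.65 (edgeR adjusted p = 0.238, DESeq2 adjusted p = 0.0333). In both, every Lama4-/- library was above every wild type library. Without the length trend the values were 0.45 and 0.71 (edgeR unadjusted p = 0.0260 and 0.00638). In that fit 8.11% of all tested genes had an unadjusted p under 0.05. Fkbp7, an isomerase of the endoplasmic reticulum, was at 303 ± 101 CPM in Lama4-/- and 172 ± 53.9 CPM in wild type. Colgalt2, a collagen galactosyltransferase, was at 121 ± 45.0 and 249 ± 135 CPM. With the length trend removed their edgeR unadjusted p was 0.118 and 0.0761. Fkbp10, whose product FKBP65 acts with Plod2 on telopeptide lysines, was at 1066 ± 194 CPM in Lama4-/- and 812 ± 156 CPM in wild type (edgeR adjusted p = 0.523).

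Of 18 tested genes of procollagen export, 8 were above and 10 below 0 in log2 fold change (median -0.12). In each direction 2 had an unadjusted p under 0.05 in edgeR, beside 4.45% higher and 8.34% lower over all tested genes. After adjustment there were 0 in edgeR, beside 0.00691%, and 3 in DESeq2, beside 4.39% of the genes it adjusted. Kdelr3, a receptor that returns proteins such as the P4hb and Serpinh1 products to the endoplasmic reticulum, had 637, 524 and 649.6 CPM in Lama4-/- and 364, 329 and 359.6 CPM in wild type (log2 fold change 0.78, edgeR adjusted p = 0.237, DESeq2 adjusted p = 0.00297). With the length trend removed its log2 fold change was 0.48 (edgeR unadjusted p = 0.0152). COPII coat genes had values on both sides, with Sec13 at 393 ± 73.8 CPM in Lama4-/- and 248 ± 15.2 CPM in wild type, Sec23a at 66.3 ± 14.4 and 109 ± 21.2 CPM, and Sec24a at 37.5 ± 4.11 and 85.8 ± 31.9 CPM. With DESeq2 the adjusted p of Sec13 was 0.0459 and that of Sec24a 0.0248. Without the length trend their log2 fold changes were 0.38 and -0.44 (edgeR unadjusted p = 0.0697 and 0.168), against 0.66 and -1.20 with it. Sec23a was at -0.47 without the trend (edgeR unadjusted p = 0.0489), against -0.72 with it. General foldases had 9 positive and 6 negative values of 15 tested and a median of 0.016. Among them Pdia5 was at 127 ± 8.53 CPM in Lama4-/- and 89.8 ± 16.1 CPM in wild type. Prdx4 was at 253 ± 14.2 and 172 ± 45.0 CPM, and the lectin chaperone Canx at 239.8 ± 35.5 and 332 ± 40.7 CPM. Their unadjusted p was under 0.05 in edgeR, 2 higher and 1 lower, beside 4.45% and 8.34% of all tested genes. Their adjusted p in edgeR was 0.363, 0.363 and 0.367. Their log2 fold changes were 0.50, 0.55 and -0.47. With the length trend removed they were 0.25, 0.24 and -0.18 (edgeR unadjusted p = 0.233, 0.205 and 0.279). The 11 other dioxygenases of the same cofactors had a median of -0.060 and the 14 hypoxia-inducible genes a median of -0.023. Neither list had a member with an unadjusted p under 0.05 in edgeR, where 12.8% of all tested genes did. In lists of 11 and 14 genes, 0 is not far from that share.

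The collagen chains themselves, the substrates, were listed for comparison. Of 26 tested, 25 had a negative log2 fold change, where 48.0% of all tested genes were positive. In edgeR 14 had an unadjusted p under 0.05, all lower in Lama4-/-, beside 8.34% of all tested genes. After adjustment there were 0 in edgeR, beside 0.00691%, and 8 in DESeq2, beside 4.39% of the genes it adjusted. Their median was -0.74, their median transcript 5989 bases long, and removal of the length trend put the median at -0.23. Col6a3 was at 430.2 ± 93.6 CPM in Lama4-/- and 1218 ± 314 CPM in wild type, and Col11a1 at 2599 ± 735 and 6733 ± 1230.3 CPM. Col27a1 was at 485 ± 159.6 and 1324 ± 249 CPM, and Col24a1 at 24.0 ± 5.17 and 66.8 ± 23.0 CPM. The basement membrane chains Col4a1 and Col4a2 were at 99.3 ± 3.58 and 252 ± 84.4 CPM, and at 64.0 ± 19.3 and 163 ± 35.4 CPM. The type I chains overlapped between the genotypes: Col1a1 was at 43832 ± 25134 CPM in Lama4-/- and 38825 ± 6622 CPM in wild type, and Col1a2 at 56107 ± 21497 and 58745 ± 17145 CPM. With the length trend removed the log2 fold change of Col1a1 was 0.85 (edgeR unadjusted p = 0.112), against 0.17 with the trend. That of Col1a2 was 0.50 (edgeR unadjusted p = 0.247), against -0.066. Col6a3 was at -0.41 without the trend and -1.50 with it, and Col11a1 at -0.50 and -1.37. For the lower chains named above, the edgeR unadjusted p without the trend ran from 0.0403 (Col27a1) to 0.0779 (Col4a1). Summed over the 10 hydroxylases and chaperones, the level was 12310 ± 2194 CPM in Lama4-/- and 9068 ± 1963 CPM in wild type. The groups overlapped, with wild type replicate 2 at 11335 CPM and Lama4-/- replicate 1 at 9964 CPM, and the sum was not tested. Serpinh1 made up 55.6% to 64.3% of it in Lama4-/- and 44.4% to 57.7% in wild type.

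Within the group, P4hb followed Serpinh1 most closely across the 6 libraries (Pearson's r of log2 CPM 0.93), then Crtap (0.87) and P3h3 (0.84), while Plod2 had the most negative value (-0.75). The points share libraries and genotype, so these values are descriptions. Outside the group, the genes most like Serpinh1 among 2841 with a mean of at least 50 CPM were Gm13889 (0.99), Pink1 (0.98), Rbck1 (0.98), Ctbp1 (0.97) and Dazap2 (0.97).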

How the data were processed

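Per the labels' protocols, cDNA came from the SMART-Seq v4 kit, with libraries made by Nextera XT and read from 1 end over 75 bases. The build GRCm38 and the tools DESeq2, featureCounts, Subread, STAR 2.6.1d, MultiQC 1.7 and FastQC 0.11.8 appear, with no role or order, in the submitters' processing notes. In the table the authors deposited, the headings raw and normalized are exchanged: the whole-number columns were used as deposited gene counts, and the deposited signal, those counts times 1 constant a library, was left out of the tests. The remaining columns are, per the file headers, the authors' DESeq2 log2 fold change with its error, a Wald score and p-values.

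Counts were filtered with filterByExpr, scaled by TMM and tested with edgeR 4.0.16 (quasi-likelihood, robust) in R 4.3.3, Lama4-/- against wild type with no covariate. Intervals use the fold change divided by the root of F as SE, and exon lengths come from GENCODE M21 (GRCm38), which matched 99.9% of the identifiers. DESeq2 1.42.0, limma 3.58.1 (voom), other scalings and filters, a replicate block, each library left out and removal of the length trend (lowess, span 0.3, as an offset) were alternatives. Log2 CPM for spread and likeness used a pseudocount of 0.5. Levels per kilobase of the longest transcript were added after seeing the data. The procedures were tested on simulated data. Libraries of a genotype differed by more than counting noise, with a chi-square of at least 47.5 per gene in each pair. Precision is set by the spread between libraries: the fewest counts of any of the 10 genes in a library were 968.

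Members, lists and tests were chosen with earlier results of these data known. Named genes are the 10 members, Lama4, from each other list at most 6 genes with an unadjusted p under 0.05, with Ppib, Fkbp10, P4ha3, Col1a1 and Col1a2 in any case, and the 5 genes most like Serpinh1. Some older and newer symbols of 1 gene stand together in the lists, and counts are of those in the table.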

Additional observations from a re-analysis of the deposited data

How the results depend on the processing

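Of 160 fold changes of the 10 genes recomputed over 16 alternatives, 156 kept their direction, and the lowest adjusted p was 0.143. The reversed values were those of P4ha1, from -0.031 to 0.30 with a library left out, and Plod1, from -0.081 to 0.18. In edgeR, 2 of the 10 genes had an unadjusted p under 0.05. That count was 0 with the length trend removed, beside 8.11% of all tested genes. It was 0 to 5 with a library left out, beside 7.75% to 15.4%. The count with groups that do not overlap, 3 with all libraries, was 3 to 7 with a library left out. The share of all tested genes was then 28.8% to 35.4%, against 22.3% with all libraries. Without the length trend the log2 difference in P4ha1 to P4ha2 reversed to 0.074 and that of Serpinh1 to Col1a1 and Col1a2 to -0.0075. Over all tested genes the count past an adjusted p of 0.05, 1 in edgeR, was 0 with upper-quartile scaling, limma voom, no robust moderation, the replicate block or the length trend removed, 12 with no filter, 722 with DESeq2 and 0 to 1 with a library left out; the cause was not tested. Replicate numbers do not pair the samples by the labels: deviations of same-numbered libraries correlated at 0.040, 0.13 and 0.054, although each library correlated best with its own number. With the number as a replicate block, 6 of the 10 genes had an unadjusted p under 0.05, beside 13.3% of all tested genes, and 0 passed the adjustment.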
